A study of Homo sapiens with 6 samples.

Results

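The PLAG family of zinc finger genes (PLAG1, PLAGL1 and PLAGL2) and 7 imprinted growth genes (IGF2, H19, CDKN1C, DLK1, MEG3, PEG3 and MEST) were examined in K562 cells for PLAG1-S and USF2 binding. The 10 genes were chosen by name from 59679 genes of the RefSeq table on the autosomes, X and Y, and a peak was assigned to a gene when any base of it lay inside or within 3 kb of the hg38 gene body. By this rule 14 of 37574 PLAG1-S peaks of clone 4, 12 of 29889 PLAG1-S peaks of clone 5, 4 of 9338 USF2 peaks of clone 4 and 2 of 4369 USF2 peaks of clone 5 lay at the 10 genes.

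The data are ChIP-seq peak lists from 2 clones, 4 and 5, of K562, a human chronic myelogenous leukemia cell line. Both clones carried the same lentiviral construct, in which FLAG-tagged PLAG1-S, a shorter form of PLAG1, and USF2 were expressed from a single promoter with a P2A site between them and a blue fluorescent protein as marker. Each clone gave a PLAG1-S library through anti-Flag, a library through anti-USF2, which takes down endogenous and introduced USF2 alike, and an input, so each factor had 2 libraries. Each clone is a single line, cells without the transgenes were not analysed here, and the 2 inputs entered only through the folds. The lists hold no expression values, so the identity of the line could not be checked against marker genes, and nothing here shows whether a gene was transcribed.

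The PLAG proteins are zinc finger transcription factors that recognize a G-rich bipartite element, whereas USF2 is a basic helix-loop-helix leucine zipper factor that binds the E-box. PLAG1 is an oncogene activated by translocation in salivary gland adenomas, where IGF2 is its best described target. Imprinted genes are expressed from a single parental allele, and many of them govern fetal growth. H19 and IGF2 share an imprinting control region on chromosome 11, CDKN1C lies in the neighboring KCNQ1 domain, and DLK1 and MEG3 form an imprinted domain on chromosome 14. PLAGL1 is itself imprinted, but which of its start sites this concerns was not examined here. Peak lists do not separate the parental alleles.

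Of the 10 genes, 8 had a peak in at least 1 list, and MEG3 and PEG3 had none. The share of all genes with a peak in any list was not computed, so this count has no background beside it. In clone 4, 5 genes had a PLAG1-S peak (PLAGL1, PLAGL2, IGF2, H19 and CDKN1C), where 35.3% of all genes and 64.0% of protein-coding genes did. In clone 5, 6 genes had one (PLAG1, PLAGL1, PLAGL2, IGF2, CDKN1C and DLK1), against 30.8% of all genes and 58.3% of protein-coding genes. A PLAG1-S peak found in both clones, called reproducible when the clone 4 and clone 5 peaks shared at least 1 bp, was present at PLAGL1, PLAGL2, IGF2 and CDKN1C, or 4 of 10, against 26.8% of all genes. These 4 are among the 8 protein-coding genes of the group, against 52.0% of all protein-coding genes, so the count lay near the background for genes of that kind.

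USF2 peaks were fewer at the 10 genes. PLAGL1 and IGF2 had one in clone 4, where 13.0% of all genes and 25.3% of protein-coding genes did, and PLAGL1 and MEST had one in clone 5, against 6.94% and 13.6%. A reproducible USF2 peak was present at PLAGL1 alone (1 of 10, against 5.03% of all genes and 10.3% of protein-coding genes). PLAGL1 was also the only one of the 10 with a co-bound peak, defined as a reproducible PLAG1-S peak with edges within 100 bp of a reproducible USF2 peak, against 4.80% of all genes and 9.98% of protein-coding genes. Both shares equal 1 gene, and at this size they cannot be set apart from the background. The median gene body was 20370 bp for the 10 genes, 5512 bp for all genes and 24115 bp for protein-coding genes, and longer bodies have more room for a peak.

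**Figure D1:**
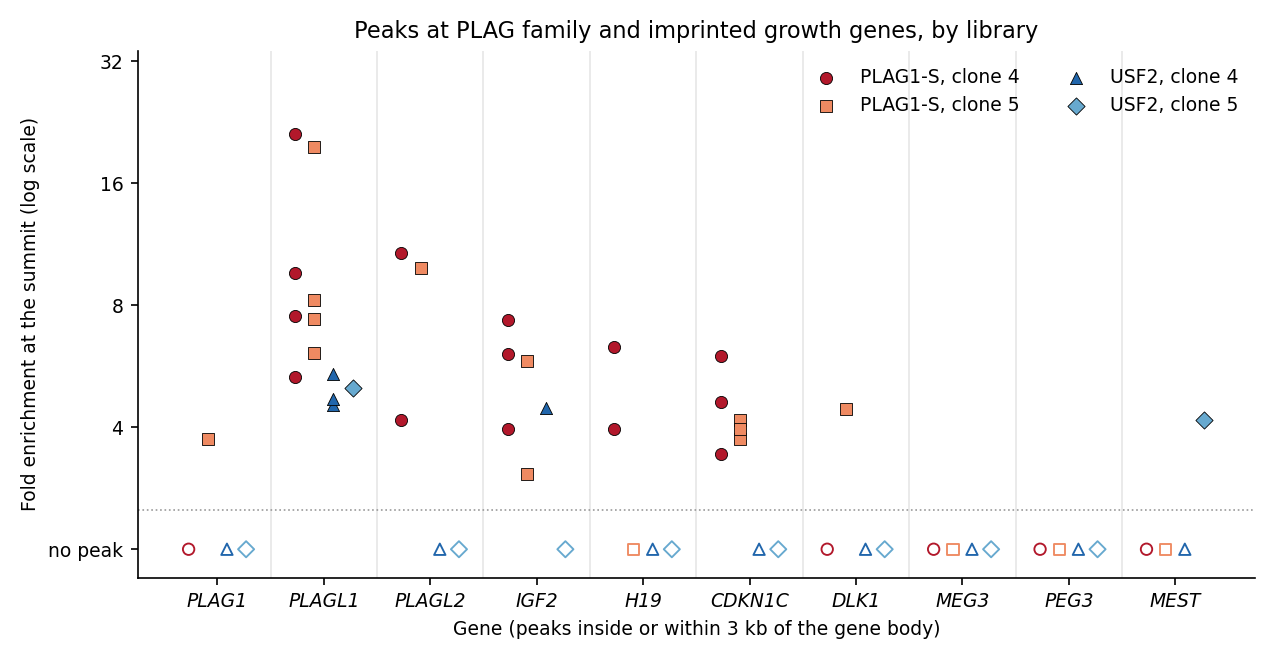
Fold enrichment at the summit of every peak inside or within 3 kb of each of the 10 genes, on a log scale, for the PLAG1-S and USF2 libraries of clones 4 and 5. Each filled symbol is a peak and each open symbol below the dotted line marks a library without a peak. The 2 highest points, 21.2 and 19.7, are PLAG1-S peaks of PLAGL1, which is also the only gene with filled symbols from all 4 libraries.

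The fold is the enrichment of fragments at the summit over the local background of the merged inputs, and it was compared only within a list or by its rank there. The same small constant is added to fragments and background before division, so a fold is below their plain ratio. At the 10 genes PLAG1-S folds ranged from 3.43 to 21.2 in clone 4 and from 3.07 to 19.7 in clone 5. The median fold at these peaks was 6.025 in clone 4 and 5.135 in clone 5, beside 5.21 and 5.0 over the whole lists. Of the peaks at the 10 genes, 9 of 14 in clone 4 and 6 of 12 in clone 5 ranked in the upper part of their list, above the list median. USF2 folds were 4.47 to 5.41 in clone 4 and 4.16 and 4.99 in clone 5, beside list medians of 4.21 and 4.49. The PLAG1-S summits rested on 13 to 107 fragments and the USF2 summits on 16 to 28, so the weaker peaks are near the limit of detection, as no peak in any list had fewer than 11 fragments.

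PLAGL1, a zinc finger factor of the PLAG family that restrains growth, carried the strongest binding of the group. Its gene spans chr6:143940300-144064599 and is read toward lower coordinates, and its 5 promoter windows in RefSeq start at separate sites. Peaks were found at 2 of these sites, the upstream start at the end of the gene body and an internal start. The gene body of HYMAI, an imprinted noncoding RNA, lies within 3 kb of every peak at the internal start. The promoter windows of these 2 sites, and that of PLAGL2, are shown because they are the starts in the PLAG family that reproducible PLAG1-S peaks cover. Each runs from 250 bases before to 50 bases after the start, 5′ to 3′ on the minus strand, from RefSeq GRCh38.p14. Capitals mark the E-box CACGTG and the G-rich element, written as GAGGC or GGGGC, 6 to 8 bases of any kind, and GGG, searched on both strands. Matches that overlap each other are counted as 1 place.
PLAGL1 internal start, chr6:144008210-144008509: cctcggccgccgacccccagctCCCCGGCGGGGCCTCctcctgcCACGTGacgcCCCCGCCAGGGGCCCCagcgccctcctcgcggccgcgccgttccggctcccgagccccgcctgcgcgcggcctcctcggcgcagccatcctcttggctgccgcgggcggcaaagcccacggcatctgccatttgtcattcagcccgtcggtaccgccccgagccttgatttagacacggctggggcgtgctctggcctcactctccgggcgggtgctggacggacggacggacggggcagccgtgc
PLAGL1 upstream start, chr6:144064550-144064849: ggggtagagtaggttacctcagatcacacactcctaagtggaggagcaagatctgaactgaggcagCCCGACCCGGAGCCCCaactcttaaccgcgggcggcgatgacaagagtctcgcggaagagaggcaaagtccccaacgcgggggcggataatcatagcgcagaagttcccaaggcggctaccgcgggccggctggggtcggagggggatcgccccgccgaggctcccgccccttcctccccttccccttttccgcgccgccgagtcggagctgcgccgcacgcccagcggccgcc
PLAGL2 start, chr20:32207694-32207993: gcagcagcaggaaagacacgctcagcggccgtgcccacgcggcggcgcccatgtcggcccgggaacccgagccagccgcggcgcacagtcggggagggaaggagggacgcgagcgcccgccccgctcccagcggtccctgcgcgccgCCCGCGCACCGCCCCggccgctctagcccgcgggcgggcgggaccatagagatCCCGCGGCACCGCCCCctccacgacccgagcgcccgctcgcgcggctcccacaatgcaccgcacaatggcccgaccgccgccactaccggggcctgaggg

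The PLAGL1 internal window held 1 CACGTG, from base 45 to base 50, and 2 places with the G-rich element, from base 23 to base 37 and from base 55 to base 70, on either side of the E-box and not overlapping it. The upstream window held 1 G-rich place, from base 67 to base 82, and no CACGTG. The PLAGL2 window held 2 G-rich places, from base 148 to base 162 and from base 201 to base 216, and no CACGTG. In all 3 windows the G-rich matches were on the opposite strand, so they appear as their reverse complement. The windows had a GC content of 75.7%, 67.3% and 78.3%. Over 34943 promoter windows of all genes, 7.23% held CACGTG and 32.2% held the G-rich element. A match describes the letters and does not show a bound site.

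At the PLAGL1 internal start, the PLAG1-S peak at chr6:144007864-144008716 had a fold of 21.2 in clone 4. It ranked 1017th of 37574, in the top 2.71% of the list, with 107 fragments over a local background of 4.1 fragments. In clone 5 the overlapping peak had a fold of 19.7, ranked 716th of 29889, in the top 2.4%, and held 97 fragments over a background of 3.97. The 2 summits lay 8 bp apart, 190 bp and 198 bp upstream of the start site. They were 13 bp and 5 bp from an inner base of the E-box, which occupies chr6:144008460-144008465. The clone 4 summit lay inside the G-rich place from base 55 to base 70 of the window. The clone 5 summit lay between that place and the E-box, so the summits do not single out either element. The clones placed strong binding at the same position within the window shown.

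USF2 was called at this internal start in clone 4 only. The USF2 peak had a fold of 5.41 on 26 fragments and a −log10 q of 9.51. Its summit lay 159 bp upstream of the start and 31 bp from the PLAG1-S summit of the same clone. The same inner base of the E-box was 44 bp from this USF2 summit. In clone 5 no USF2 peak was called there, so the site is not co-bound by the rule used here. The clone 5 USF2 list held 4369 peaks against 9338 in clone 4, and the part of this difference in the missing peak was not tested. A second PLAG1-S peak of this start, at chr6:144007253-144007448, was weaker, with folds of 5.31 in clone 4 and 6.1 in clone 5 and summits 939 bp and 911 bp downstream of the start, and no USF2 peak lay over it.

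The co-bound peak was at the upstream start. PLAG1-S at chr6:144064062-144064799 had a fold of 7.54 in clone 4 and 7.41 in clone 5, with summits 271 bp and 274 bp downstream of the start. USF2 had a fold of 4.7 in clone 4 and 4.99 in clone 5, with summits 223 bp and 245 bp downstream of the start. The USF2 summit was 48 bp from the PLAG1-S summit in clone 4 and 29 bp in clone 5. All 4 summits lay beyond the 3′ end of the window shown, which ends 50 bases after the start, so its letters do not cover the summits. A further PLAG1-S peak at chr6:144063268-144063829 had folds of 9.61 and 8.25 and summits 1175 bp and 1177 bp downstream, with a USF2 peak of fold 4.54 in clone 4 alone. PLAGL1 thus had 4 reproducible PLAG1-S peaks, 2 at each start, and the strongest PLAG1-S peak was not the co-bound one.

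**Figure D2:**
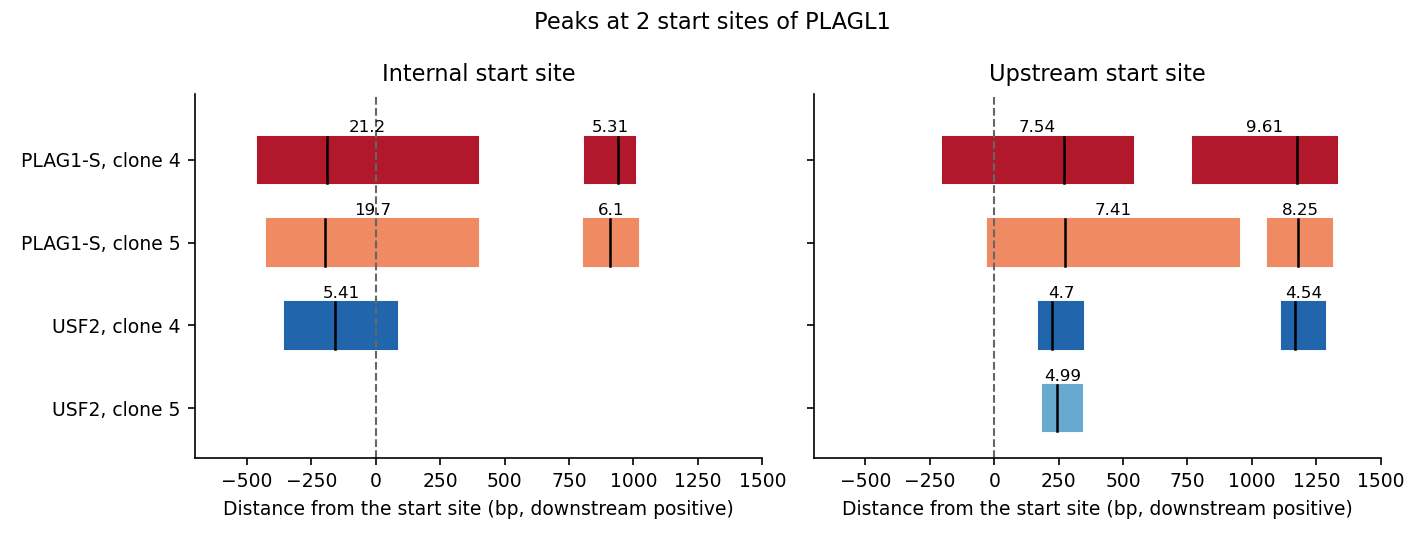
Peaks of the 4 libraries at the internal and the upstream start site of PLAGL1, drawn to scale by distance from the start in bp along the direction of transcription, with black lines at the summits and the fold above each peak. PLAG1-S peaks of both clones stand at both starts, at folds of 21.2 and 19.7 at the internal start, while USF2 appears in both clones only at the upstream start, at 4.7 and 4.99.

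PLAGL2, a family member with growth-promoting activity, spans chr20:32192504-32207743 on the minus strand. Its PLAG1-S peak at chr20:32207272-32207775 had a fold of 10.8 in clone 4, in the top 11.5% of the list, and 9.87 in clone 5, in the top 10.5%. The summits lay 123 bp and 110 bp downstream of the start, and the peak overlaps the window shown, although the summits lie outside it. This peak also lay within 3 kb of POFUT1, the neighboring gene, which encodes an O-fucosyltransferase that modifies Notch. A weaker PLAG1-S peak, with a fold of 4.18 and 171 bp outside the gene, was called in clone 4 alone. The nearest USF2 peak was 82593 bp away in clone 4 and 82672 bp in clone 5.

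PLAG1 itself, at chr8:56160909-56211273, was examined for signal carried over from the introduced cDNA, which holds coding sequence of PLAG1 and USF2. No peak of any of the 4 lists overlapped the 50365 bp of the PLAG1 body, and so none lay on an exon of it. Exon positions were not used here, and reads from the vector that are present alike in the immunoprecipitated and input libraries would not give a peak, so this does not measure how many such reads there were. The only PLAG1-S peak by the rule was in clone 5, 288 bp outside the gene body and within 3 kb of CHCHD7, a neighboring gene. Its fold was 3.75, with 18 fragments over a background of 4.07, and it ranked 25985th of 29889 in the list. The nearest clone 4 PLAG1-S peak was 86082 bp away, so no reproducible peak was seen at PLAG1. Just beyond the 3 kb margin, a clone 5 peak with a fold of 4.16 lay 3595 bp away.

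USF2, the other introduced gene, spans chr19:35268962-35279821 and was used as a second check. PLAG1-S was bound at one end of the gene with a fold of 23.0 in clone 4 and 20.7 in clone 5, and USF2 with a fold of 10.0 and 7.54. All 4 peaks overlapped the lower-coordinate end of the body. The PLAG1-S peaks reached into it as far as chr19:35270141 in clone 4 and chr19:35270134 in clone 5. Whether exons lie under them was not checked. The last 9680 bp to 10780 bp of the body, depending on the library, held no peak. In clone 4 a further USF2 peak of fold 3.12 lay in the body before this stretch. In clone 5, 2 further PLAG1-S peaks lay outside the body, 1098 bp and 839 bp away, with folds of 3.59 and 4.7. The local background at the PLAG1-S summits of 23.0 and 20.7 fold, 3.08 and 2.86 fragments, was below the list medians of 3.67 and 3.41. It was above the list median at the USF2 peak inside the body, at 5.74 against 3.76, and at the outer clone 5 PLAG1-S peak of fold 3.59, at 4.58 against 3.41.

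IGF2, the fetal insulin-like growth factor, spans chr11:2129117-2149566. At chr11:2132982-2133226 PLAG1-S had a fold of 6.06 in clone 4 and 5.83 in clone 5, and the summits lay 8 bp apart. At chr11:2134422-2134786 the fold was 7.35 in clone 4 and 3.07 in clone 5, where the overlapping peak ranked 28838th of 29889 and had its summit 187 bp away. The ratio of clone 5 to clone 4 there was 0.418, beside a median of 0.887 and an interquartile range of 0.73 to 1.08 over all 21469 reproducible PLAG1-S peaks. The first peak was close in fold in both clones, and the second was weaker in clone 5. Beyond the 3 kb margin, 6702 bp from the gene in clone 4 and 6770 bp in clone 5, a peak found in both clones had folds of 5.8 and 7.22, the latter above both clone 5 folds inside IGF2. Another PLAG1-S peak, with a fold of 3.95, and a USF2 peak of fold 4.47 at chr11:2143907-2144071 were called in clone 4 alone. All IGF2 peaks also fell within 3 kb of INS-IGF2, the readthrough gene with insulin, and the PLAG1-S peaks within 3 kb of MIR483, a microRNA gene inside IGF2. The USF2 peak was also within 3 kb of IGF2-AS, the antisense gene.

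H19, a noncoding RNA expressed reciprocally to IGF2, spans chr11:1995176-2001266, 128 kb from IGF2. It had 2 PLAG1-S peaks in clone 4, with folds of 6.32 and 3.95 on 23 and 14 fragments, and none in clone 5. Stronger peaks lay beyond the 3 kb margin, on the lower-coordinate side of H19. At chr11:1989984-1990421, 4755 bp away, the fold was 12.1 in clone 4 and 10.1 in clone 5, in the top 9.16% and 10.2% of the lists. At chr11:1988086-1988860 the folds were 9.75 and 8.89, and at chr11:1991191-1991401 they were 6.32 and 5.56. A weaker peak with a fold of 4.22 was found between them in clone 4. The 3 peaks of both clones are therefore not counted at H19 by the rule, and which gene they serve was not tested. The peaks inside H19 also lay within 3 kb of MRPL23 and of MIR675, the microRNA gene in H19, and one of them within 3 kb of LINC01219.

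CDKN1C, the cyclin-dependent kinase inhibitor p57, spans chr11:2883218-2885775, 734 kb from IGF2. PLAG1-S at chr11:2885063-2885248 had a fold of 4.63 in clone 4 and 4.16 in clone 5, with summits 100 bp apart. At chr11:2885699-2886416 the fold was 5.99 and 3.95, and the summits were 377 bp apart, so the peaks overlapped but did not share a summit. Single-clone peaks had folds of 3.43 in clone 4 and 3.74 in clone 5. Farther out, 4760 bp and 6574 bp from the gene, peaks of both clones had folds of 7.36 and 6.44, and of 8.18 and 4.69. These outer peaks had the higher folds in both clones. The peaks inside the gene or at its edge also lay within 3 kb of SLC67A1-AS.

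**Figure D3:**
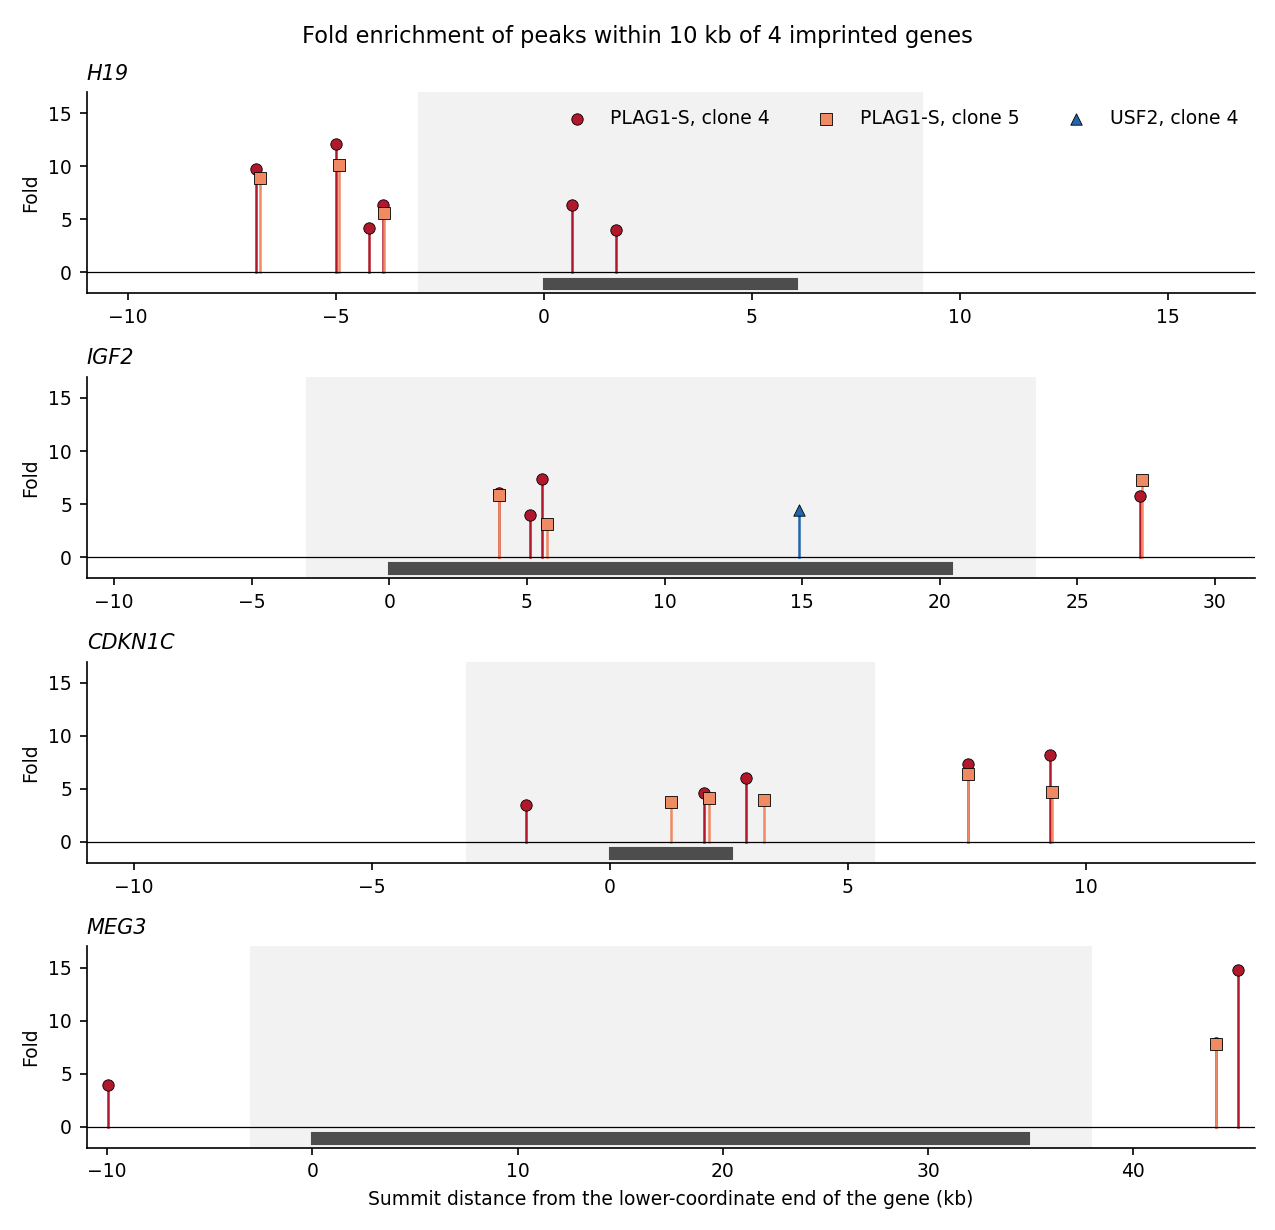
Fold enrichment of every peak within 10 kb of H19, IGF2, CDKN1C and MEG3 against the distance of its summit in kb from the lower-coordinate end of the gene, with the gene body as a dark bar and the 3 kb margin shaded. The highest points at H19 (12.1 and 10.1) and at MEG3 (14.8) lie outside the shaded margin.

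DLK1, a transmembrane protein of the Notch ligand type, spans chr14:100726892-100738224. It had a single PLAG1-S peak, in clone 5, with a fold of 4.44 on 15 fragments, and the nearest clone 4 peak was 32962 bp away. MEG3, a noncoding RNA of the same domain 87.9 kb away, spans chr14:100826108-100861026 and had no peak by the rule. Beyond it, 8964 bp from the gene, PLAG1-S had a fold of 7.9 in clone 4 and 7.78 in clone 5. At chr14:100871026-100871559, 10000 bp from the gene, the clone 4 fold was 14.8, in the top 5.91% of the list, and a clone 5 peak overlapped it. The region past MEG3 was thus bound in both clones. The gene and its 3 promoter windows, which overlap each other and hold the same G-rich place, were free of peaks.

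PEG3, a zinc finger gene expressed from the paternal allele, spans chr19:56810082-56840726 and had no peak within 10 kb. The nearest PLAG1-S peak was 406032 bp away in clone 4 and 91188 bp in clone 5. MEST, a paternally expressed gene of the hydrolase type, spans chr7:130486175-130506465 and had its nearest PLAG1-S peak 45234 bp away in clone 4 and 44975 bp in clone 5. Its single peak was of USF2 in clone 5, with a fold of 4.16 on 22 fragments and a summit 1066 bp downstream of the nearest start. It lay within 3 kb of MESTIT1, an antisense gene, and of MIR335, a microRNA gene in MEST. Of the 5 MEST promoter windows, 2 that overlap each other held the same 2 G-rich places, without a PLAG1-S peak over them. The single H19 window held neither motif. The windows of PLAG1, IGF2, CDKN1C, DLK1 and PEG3 were not used here.

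Agreement between the clones was near that of the whole lists. Of the PLAG1-S peaks at the 10 genes, 9 of 14 in clone 4 and 9 of 12 in clone 5 overlapped a peak of the other clone, beside 57.1% and 72.6% of the whole lists. In clone 4 those 9 had folds of 4.63 to 21.2, and the 5 others had 3.43 to 6.32. In clone 5 the 9 had folds of 3.07 to 19.7 and the 3 others 3.74 to 4.44, so the ranges overlapped in both clones. For USF2, 1 of 4 peaks in clone 4 and 1 of 2 in clone 5 were found in the other clone, beside 25.8% and 55.7% of the lists. The lists give no value where no peak was called, no test between libraries was run, and single-clone peaks are given as values of that clone.

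**Figure D4:**
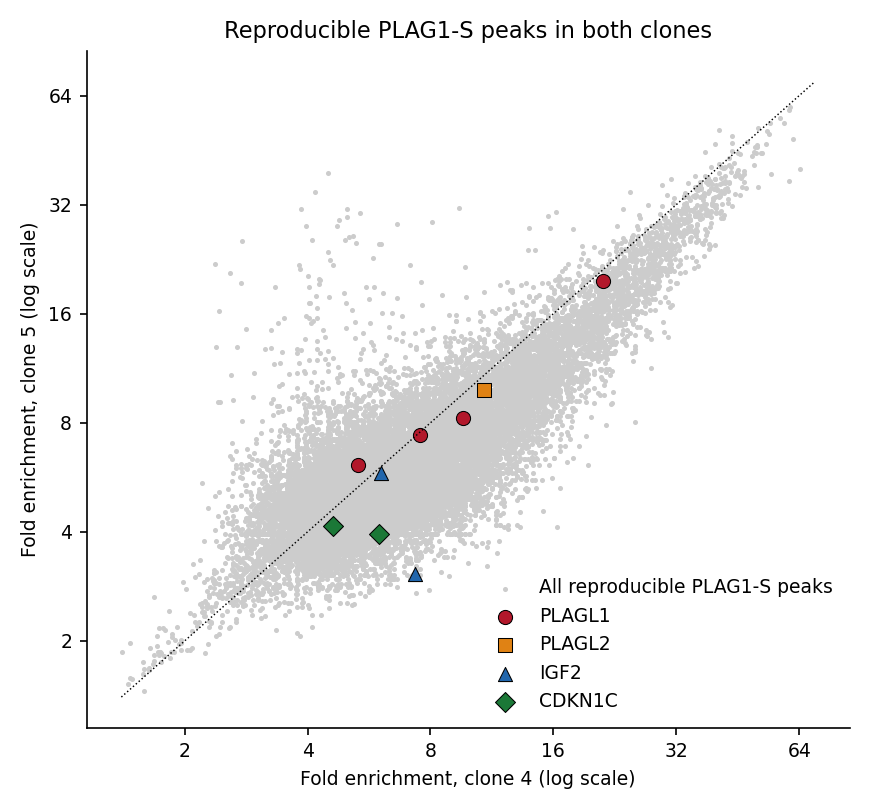
Fold enrichment in clone 5 against clone 4, on log scales, for all 21469 reproducible PLAG1-S peaks (grey) and the 9 at PLAGL1, PLAGL2, IGF2 and CDKN1C (colored), with equality as a dotted line. Of the 9 colored peaks, the IGF2 peak at 7.35 and 3.07 stands lowest against the line, and the 4 PLAGL1 peaks lie close to it.

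The other genes of these pathways were described with the same rule. Of 30 other genes listed as imprinted, 18 (60.0%) had a reproducible PLAG1-S peak and 1 (3.33%) a reproducible USF2 peak. Beside these, the shares were 26.8% and 5.03% of all genes and 52.0% and 10.3% of protein-coding genes. Of 24 genes of insulin-like growth factor signaling, 17 (70.8%) had a reproducible PLAG1-S peak and 4 (16.7%) a reproducible USF2 peak. Co-bound peaks were present at IGF2R, which belongs to both lists, and at IGF1R and IGF2BP1. That is 1 of the 30 imprinted genes (3.33%) and 3 of the 24 signaling genes (12.5%). The shares over all genes and protein-coding genes were 4.80% and 9.98%. These shares are counts without a test, and the lists hold few genes of uneven length. Both lists were written from textbook knowledge. Whether each gene listed as imprinted is so in humans, or in K562 cells, was not checked.

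The folds of these genes are the highest of each gene in each library, so clone 4 and clone 5 values need not come from the same peak. IGF2R, the receptor that clears IGF2, had a PLAG1-S fold of 42.9 in clone 4 and 34.8 in clone 5, and a USF2 fold of 26.0 and 17.6. IGF1R, the signaling receptor for IGF1 and IGF2, had PLAG1-S folds of 41.1 and 29.4 and USF2 folds of 23.9 and 21.7. Both genes ranked far above PLAGL1, at 54th and 72nd of the clone 4 PLAG1-S list. IGF2BP1, an RNA-binding protein of IGF2 mRNA, had PLAG1-S folds of 18.8 and 12.9 and USF2 folds of 10.1 and 6.44. At IRS1, a docking protein of the receptors, the PLAG1-S folds were 25.0 and 24.7, with USF2 in clone 4 alone at 4.21. At the insulin receptor gene INSR they were 12.6 and 10.4, with USF2 at 5.4 and 4.79.

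For the other genes listed as imprinted the folds are likewise the highest in each library. The potassium channel gene KCNQ1, whose domain holds CDKN1C, had PLAG1-S folds of 16.0 in clone 4 and 11.1 in clone 5. GNAS, the stimulatory G protein subunit gene, had 11.6 and 8.33, and ASCL2, a helix-loop-helix factor gene near IGF2, had 10.5 and 6.1. OSBPL5, an oxysterol-binding protein gene, had 7.38 and 9.89. USF2 peaks were found at KCNQ1 in both clones, at 4.73 and 4.33 and without overlapping each other, and at GNAS, ASCL2 and OSBPL5 in clone 4 alone, at 4.39, 4.39 and 3.19.

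**Figure D5:**
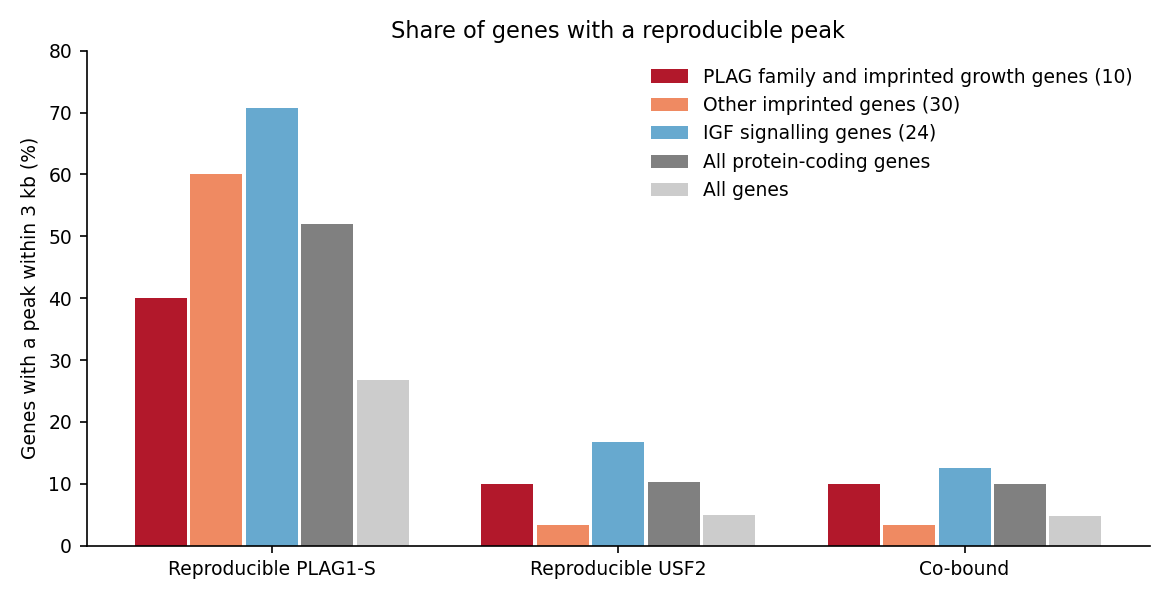
Share in percent of genes with a reproducible PLAG1-S, reproducible USF2 or co-bound peak inside or within 3 kb, for the 10 genes, 30 other imprinted genes, 24 insulin-like growth factor signaling genes, all protein-coding genes and all genes. For PLAG1-S the 10 genes stand below protein-coding genes (52.0%) and above all genes (26.8%).

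The genes most like PLAGL1 were found by the distance between log2 folds over the 4 libraries, taking the highest fold of each gene in each library. Among the nearest were SYDE2 (0.122) and HACL2 (0.198), in log2 units over 4 libraries. SYDE2 had a PLAG1-S fold of 19.8 in clone 4 and USF2 folds of 5.38 and 5.14. HACL2 had PLAG1-S folds of 23.7 and 18.5 and USF2 folds of 5.15 and 4.9. The folds of PLAGL1 that entered were 21.2, 19.7, 5.41 and 4.99, of which the first 3 belong to the internal start and the last to the upstream start, so the likeness is of the gene and not of a single peak.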

How the data were processed

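ChIP-seq of K562 clones 4 and 5 gave 4 immunoprecipitated libraries of 42.5 M reads and 2 inputs of 55 M reads, single-end and 50 bp per the labels. The authors aligned reads to hg38 and ran MACS2 on every pull-down library on its own, with the pooled inputs as control for all 4 lists. The processing notes name cutadapt, HISAT2 2.0.4, SAMtools, bedtools and HOMER. In the deposited lists the fold is a ratio of fragments to the local background at the summit, the −log10 p and −log10 q are those of MACS2, and the score is 10 times the −log10 q (100% of peaks). The PLAG1-S lists ended at q-values of 0.0099 and 0.0097 and the USF2 lists at 0.049 and 0.048, so the USF2 lists reach weaker peaks.

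Peaks were joined to genes of RefSeq GRCh38.p14, 1 interval per gene. Fragments and background at each summit were recomputed from the deposited fold and −log10 p, to within 0.001 of the latter, and the recovery was tested on simulated summits. All 10 genes are named, with those sharing their peaks, the co-bound and the 5 strongest genes of each context list, and the 3 genes most like PLAGL1, of which 1 is not reported here. SLC22A18 was matched as SLC67A1. The genes and lists were chosen with earlier results of these data known. No test between libraries was run, since the lists hold called peaks only. Alternatives were other margins, q-values, overlaps, co-bound distances, single clones and protein-coding genes as the background. Promoter windows matched 5 of 10 genes. Python 3.11.15, numpy 2.4.6, pandas 2.3.3, scipy 1.17.1 and matplotlib 3.10.9 were used.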

Additional observations from a re-analysis of the deposited data

How the results depend on the processing

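Of 79 alternative values, 12 could not change the count, because 8 changed only the background and 4 set a −log10 q floor of 2 that removed no PLAG1-S peak. Of the other 67, 53 were within 1.5 times the reported count and 14 were not. With protein-coding genes as the background, the shares rose from 26.8% to 52.0% for reproducible PLAG1-S, from 5.03% to 10.3% for reproducible USF2 and from 4.80% to 9.98% for co-bound peaks. When −log10 q had to reach 10, PLAG1-S peaks remained at 2 genes in clone 5, USF2 peaks at 0 in either clone, reproducible PLAG1-S peaks at 2 genes (5 peaks), reproducible USF2 peaks at 0 and co-bound peaks at 0. With a 10 kb margin the reproducible PLAG1-S peaks numbered 17, from 9. In the union of both clones PLAG1-S peaks were at 7 genes, USF2 peaks at 3, and PLAG1-S peaks numbered 17. The shares of all genes with a peak in this union were not computed. Leaving out either clone and using the other list alone gave USF2 peaks at 2 to 2 genes and 12 to 14 PLAG1-S peaks. The co-bound count thus rests on PLAGL1 USF2 peaks of −log10 q below 10. No paired analysis was possible because no result came from a test and the lists hold no value where no peak was called, and clone 4 and clone 5 values are given side by side. The weakest calls rest on few fragments, as few as 13 for a peak, and how they depend on depth was not tested.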

Other observations

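Over all 34943 RefSeq promoter windows, those with CACGTG overlapped a reproducible PLAG1-S peak in 61.0% of cases and a reproducible USF2 peak in 32.5%, whereas of 32417 windows without it 6175 overlapped a PLAG1-S peak and 430 (1.33%) a USF2 peak. Windows with the G-rich element overlapped a reproducible PLAG1-S peak in 37.9% and a USF2 peak in 5.85%, against 14.6% and 2.51% without it. The PLAGL1 internal window holds both elements, and windows of one gene can overlap each other, so these shares are descriptions.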
